A study of Mus musculus with 4 samples.

Results

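Cytochrome P450 families 1 to 4 hold the monooxygenases that oxidise foreign compounds, steroids and fatty acids. They were taken here as every non-control probe of the array whose deposited gene name begins with Cyp, a family digit from 1 to 4, a subfamily letter and a number. The rule found 82 of 41174 probes, for 55 of 27745 gene names. Of these names, 3 belong to family 1, 35 to family 2, 6 to family 3 and 11 to family 4. A single probe measured 31 of the genes, 2 probes measured 21 and 3 probes measured 3. Under current nomenclature Cyp2c44 is Cyp2c23, Cyp3a41 is Cyp3a41a and Cyp4a12 is Cyp4a12a, and the names on the array are kept below.

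The samples were CD45- cells, that is, cells without the pan-leukocyte surface marker, of C57BL/6NCrl wild-type mice, isolated either from the gut-draining mesenteric lymph node (mLN) or from the peripheral lymph node (pLN). Each node was taken in 2 experiments, giving 2 mLN and 2 pLN arrays, and no treatment was applied to either. In both groups the nodes were digested with 1 mg/ml collagenase in medium with 10% serum for 30 minutes at 37 degrees, leukocytes were removed magnetically (mean purity 97.4% ± 2.0 in mLN and 97.5% ± 2.2 in pLN, as stated in the labels), and 80 ng of RNA was labelled with 1 dye for an Agilent microarray, which reads each transcript as the brightness of a probe. The labels give neither the sites of the peripheral nodes nor the number of animals, nor whether the experiments used separate animals, so the p-values below measure only the spread between these samples.

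P450 enzymes bind heme and insert an oxygen atom into their substrate, with electrons that arrive from NADPH through P450 oxidoreductase and cytochrome b5. Families 1, 2 and 3 are best known from the liver and from the epithelia of lung, gut and skin, where ligand-activated receptors such as the aryl hydrocarbon receptor induce some of them. Family 4 hydroxylates fatty acids and eicosanoids, and several members of family 2 turn arachidonic acid into epoxides.

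The 6 genes that passed the test between the nodes were read by the oligonucleotides below. They are shown to identify what each value measured, as the 30 bases at the 5′ end of each 60-base probe, with the probe's coordinates on mm8 as deposited. Each probe lay on 1 unbroken stretch of its chromosome. The exon or other part of the gene that each one meets was not analysed here.
Cyp2s1 (chr7:25511245-25511304, minus strand): cagaagccatagctgacctctttgtgactt
Cyp3a13 (chr5:138123878-138123937, minus strand): gaacttgctcagtctctgtgaaagttatct
Cyp1a1 (chr9:57501865-57501924, plus strand): gataatttgctagtgtaacaaagaagattc
Cyp2e1 (chr7:140625006-140625065, plus strand): agatccagagacatttaaacctgagcattt
Cyp2f2 (chr7:26842311-26842370, plus strand): aatgacgtgacaaaggtgaaatacccgtct
Cyp3a25 (chr5:146281833-146281892, minus strand): acccatcatcctaaaggttgtgtcaagaga

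Signals are given scaled, so that the 75th percentile of each array is 1000, and the log2 fold change of mLN over pLN is the difference of the mean log2 signals, with its standard error (SE). The scanner's software flags a spot as well above background, and a signal without that flag gives only an upper bound. By this flag 51 of the 82 probes were well above background on both mLN arrays and 53 on both pLN arrays. Both arrays of at least 1 node were reached by 55 probes, and all 4 arrays by 49 (67.1% and 59.8% of the 82, where 77.5% and 72.3% of all probes were). Only Cyp3a13 had a probe above background on both mLN arrays and on neither pLN array, and the 2 probes with the opposite pattern both belonged to Cyp3a25. None of the 4 arrays was reached by 16 probes, and no P450 probe was saturated. The members' count per array was 57 and 53 in mLN and 58 and 57 in pLN.

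Of the 55 genes, 43 had a probe well above background on both arrays of a node and were tested, 40 of them through a probe that was so on all 4 arrays. The remaining 12 were not tested. Among these, Cyp1a2, Cyp2a12, Cyp2c38, Cyp2c39, Cyp3a44 and Cyp4f15 were well above background on no array. Cyp2a5, Cyp2b9 and Cyp2c54 reached it on 1 array, and Cyp2j5 and Cyp4f14 on 2 arrays, 1 from each node. Cyp2b10 also reached it on 1 array from each node, but through a different probe on each. Cyp1a2 and several Cyp2b and Cyp2c genes are liver enzymes.

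**Figure D1:**
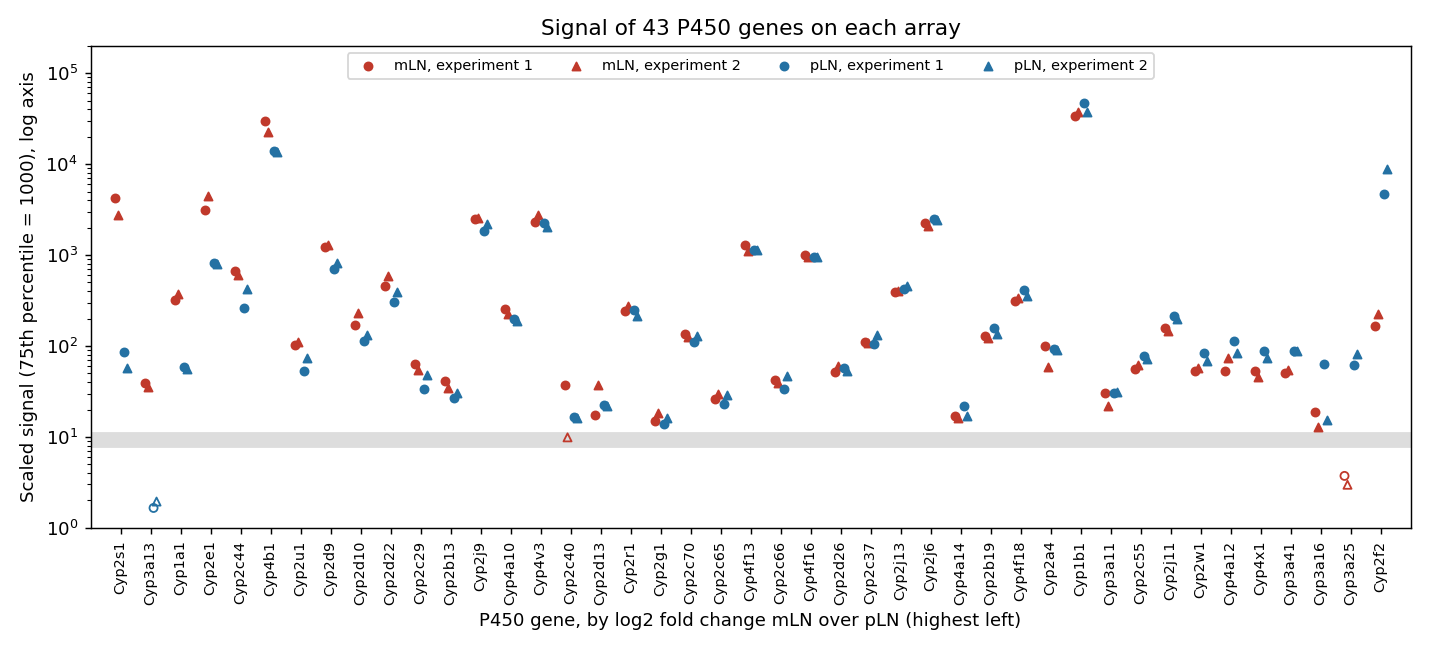
Scaled signal on each of the 4 arrays (log axis, 75th percentile of an array = 1000) for the 43 tested P450 genes, ordered by log2 fold change of mLN over pLN. Red symbols are mLN and blue symbols pLN, circles experiment 1 and triangles experiment 2. Open symbols were not well above background, and the grey band spans the lowest signals called well above background on the 4 arrays (7.76 to 11). The separation is widest for Cyp2s1 on the left and Cyp2f2 on the right.

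Between the nodes 6 of the 43 tested genes passed limma's test at a Benjamini-Hochberg adjusted p of 0.05, 4 higher and 2 lower in mLN. Over all 21392 genes tested, 1.05% passed, 0.771% higher and 0.276% lower. By the probe that represented each gene, the same 6 genes, and no other member, changed by 2-fold or more in one direction in each experiment. Of all tested genes 4.45% did so (2.75% higher, 1.71% lower). A probe of Cyp2d22 that did not represent it read 543 and 446 in mLN, against 223 and 162 in pLN (log2 fold change 1.37). Cyp3a13 and Cyp3a25 entered the test only through the node where they were high, so a difference was built into their selection.

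Cyp2s1, an extrahepatic P450 known from epithelial tissues, had signals of 4254 and 2784 in mLN, against 86.3 and 57.4 in pLN. The nodes did not overlap, and all 4 signals were well above background. The mLN mean was 48.9-fold the pLN mean (log2 fold change 5.61 ± 0.32, limma adjusted p = 0.0140), with ratios of 49.3 and 48.5 in experiments 1 and 2. A second Cyp2s1 probe (chr7:25512910-25512969) was well above background on no array, so the difference rests on 1 probe. The same holds for Cyp3a13, Cyp1a1, Cyp2e1 and Cyp2f2, which each had only 1 probe on the array.

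Cyp3a13, a mouse CYP3A enzyme of liver and intestine, gave 39.0 and 35.2 in mLN, against 1.65 and 1.94 in pLN. Neither pLN signal was well above background. Set against the lowest signal called well above background on the pLN arrays, Cyp3a13 was 4.25-fold higher in mLN (3.89- to 4.65-fold with 1 array left out). This bound, 2.09 on the log2 scale, holds only for the processing used here. It is not a strict limit, because unflagged signals can exceed the lowest flagged one. On pLN replicate 2 a Cyp2b9 probe at 10.9 was unflagged, where the lowest flagged signal was 9.52. The deposited value table gave 1.89, and normexp background correction without spots of high local background gave 1.24. The adjusted p of 0.00761 belongs to limma's fit of the signals as measured (log2 fold change 4.37 ± 0.16), not to this bound.

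Cyp1a1, which hydroxylates polycyclic aromatic hydrocarbons and is a standard target of the aryl hydrocarbon receptor, had signals of 319 and 376 in mLN, against 58.4 and 55.8 in pLN. The groups did not overlap. The mLN mean was 6.07-fold higher (log2 fold change 2.60 ± 0.16, limma adjusted p = 0.0155).

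Cyp2e1, which oxidises ethanol and other small molecules, had signals of 3117 and 4415 in mLN, against 827 and 807 in pLN. Again the nodes stood apart, in both experiments. The mLN mean was 4.54-fold higher (log2 fold change 2.18 ± 0.22, limma adjusted p = 0.0399).

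Cyp2f2, known in mice as the naphthalene-oxidising enzyme of airway club cells, had signals of 165 and 227 in mLN, against 4723 and 8804 in pLN. All 4 arrays were well above background, and the 2 nodes were far apart. The mLN mean was 33.3-fold lower (log2 fold change −5.06 ± 0.37, limma adjusted p = 0.0188).

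Cyp3a25, another mouse CYP3A enzyme of liver and intestine, gave 3.72 and 2.97 in mLN, neither well above background, against 61.1 and 81.3 in pLN. By the same kind of bound it was 7.64-fold lower in mLN (6.42- to 9.08-fold with 1 array left out). The bound is 2.93 on the log2 scale, while the deposited value table gave −2.82 and that normexp alternative −1.09. Here too the adjusted p of 0.0120 is that of limma's fit of the measured signals (log2 fold change −4.41 ± 0.22). Its second probe, which spans an intron (chr5:146291183-146294176), gave 2.03 and 2.56 in mLN, against 19.4 and 31.7 in pLN. Both Cyp3a25 probes thus read above background in pLN alone.

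These calls rest on 2 arrays a node, and none of the 6 passed without pLN replicate 1 or without pLN replicate 2 (adjusted p from 0.0756 to 0.231), where limma called 0 of all genes and 1877 and 2297 had an unadjusted p under 0.05. Cyp2f2 also missed the threshold without mLN replicate 1 (limma adjusted p = 0.0603) or mLN replicate 2 (0.05001), and Cyp2e1 without mLN replicate 2 (0.0550). The normexp background correction also called 0 genes in all, 569 with an unadjusted p under 0.05, and under it Cyp3a25 turned to 0.39 on the log2 scale, against a median of 0.38 over all genes.

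**Figure D2:**
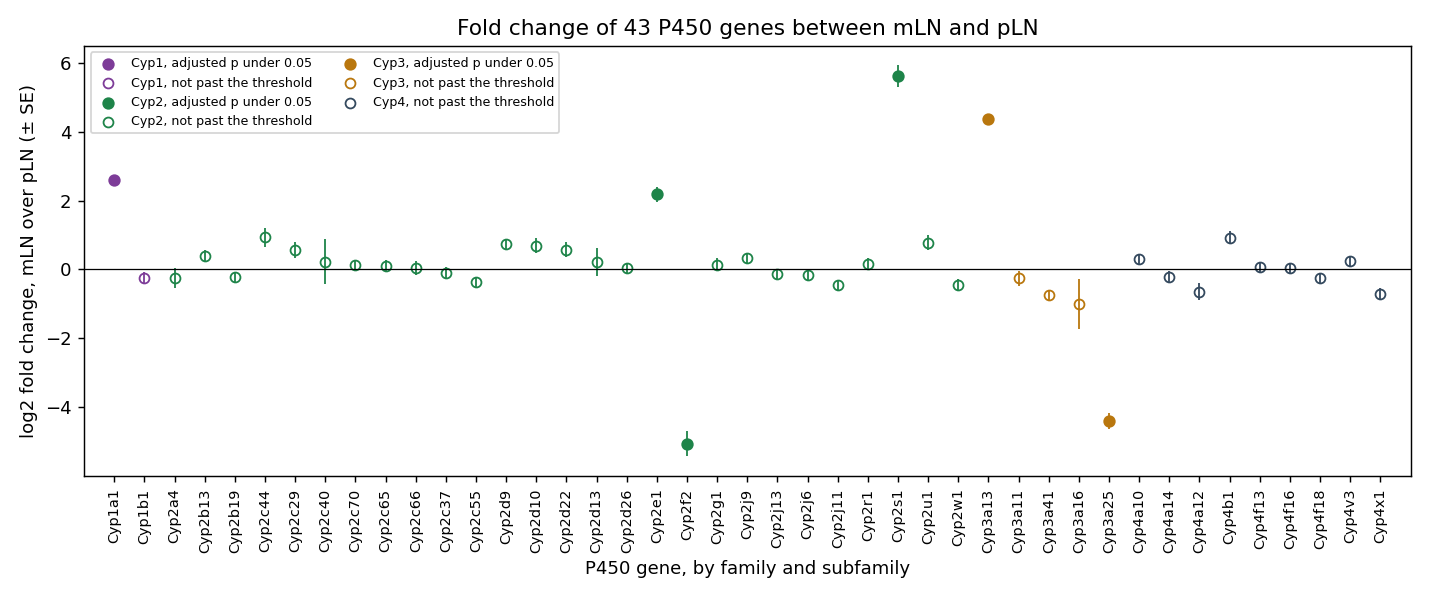
Log2 fold change of mLN over pLN with its SE for the 43 tested P450 genes, by family and subfamily. Filled symbols passed an adjusted p of 0.05 and open symbols did not. The 6 filled symbols lie between −5.06 and 5.61, and the open ones between −1.01 and 0.94.

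By the probes that represented them, the other 37 tested genes lay within about 2-fold of equal signal. Their log2 fold changes ran from −1.01 to 0.94 and their limma adjusted p from 0.122 to 0.961. Other entering probes of Cyp2d22, which did not represent it, lay beyond 2-fold, at up to 1.37 on the log2 scale. Over the 43 tested genes the median log2 fold change was 0.074, and over all tested genes −0.033. Signals of the nodes did not overlap for 30 of the 43 genes, 15 higher and 15 lower in mLN, where 45.6% of all tested genes did not overlap (20.6% higher, 25.1% lower). Thus 13 genes had overlapping signals. An unadjusted p under 0.05 was reached by 14 of the 43, 9 higher and 5 lower, against 14.7% of all tested genes (7.8% higher, 6.89% lower).

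Cyp1b1, which oxidises oestradiol and aromatic hydrocarbons and is known from mesenchymal cells, was the member with the highest mean signal, although signals of different probes do not compare transcript levels. It gave 34006 and 37144 in mLN, against 47624 and 37629 in pLN. The log2 fold change of −0.25 ± 0.18 did not pass (limma adjusted p = 0.628). Cyp1b1 and Cyp1a1 are both targets of the aryl hydrocarbon receptor, and of this pair only Cyp1a1 passed. The difference between their changes was not tested.

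The bases upstream of both genes are printed to show where the core letters of this receptor's response element occur in them. The core of its response element is GCGTG, which reads CACGC on the other strand, and both forms were searched in the 250 bases before the RefSeq start on GRCm38.p6. The capitals mark it in the 2 sequences, read along the gene's strand.
Cyp1a1 (chr9:57697363-57697612, plus strand): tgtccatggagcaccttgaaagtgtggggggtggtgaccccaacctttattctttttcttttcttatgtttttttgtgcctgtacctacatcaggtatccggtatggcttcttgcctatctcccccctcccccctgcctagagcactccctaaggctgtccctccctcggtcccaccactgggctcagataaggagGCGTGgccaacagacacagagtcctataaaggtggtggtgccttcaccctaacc
Cyp1b1 (chr17:79715062-79715311, minus strand): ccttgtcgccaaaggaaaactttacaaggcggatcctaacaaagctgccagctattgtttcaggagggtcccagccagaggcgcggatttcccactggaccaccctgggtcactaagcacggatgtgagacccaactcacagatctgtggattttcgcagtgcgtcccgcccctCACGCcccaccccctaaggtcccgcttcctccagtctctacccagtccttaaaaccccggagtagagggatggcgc

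Each window held 1 match, beginning 54 bases before the start in Cyp1a1 and 76 bases before it in Cyp1b1. Whether the receptor acts through either match was not tested, and bases further upstream were not searched. Among the 6 genes that passed the test, Cyp1a1 was the 1 with a match. At least 1 entry held a match for 9 of the 45 P450 genes with an entry (20%). Counted entry by entry, and not gene by gene, 28.2% of all 32851 entries of the same length held one. Those entries had a median GC content of 52.4%, and the P450 genes one of 48.8%.

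In the Cyp2c, Cyp2d, Cyp2j and Cyp2u groups no gene passed. Cyp2c44, an arachidonic acid epoxygenase, had signals of 669 and 597 in mLN, against 259 and 422 in pLN. Its log2 fold change was 0.94 ± 0.28 (limma adjusted p = 0.250). The 7 other tested Cyp2c genes, several of them known from gut or liver, lay between −0.37 and 0.56.

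Cyp2d9, a testosterone hydroxylase of male mouse liver, gave 1224 and 1307 in mLN, against 707 and 825 in pLN (log2 fold change 0.73 ± 0.16, limma adjusted p = 0.149). All 5 tested Cyp2d genes had a positive log2 fold change, with a median of 0.57, but none passed, and 2 had an unadjusted p under 0.05. Without mLN replicate 2, 3 of the 5 were positive, and without pLN replicate 2, 4 were. Cyp2d genes are close in sequence, and how far their probes share signal was not tested.

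Cyp2u1, which hydroxylates long-chain fatty acids, had signals of 103 and 111 in mLN, against 52.9 and 73.8 in pLN. The log2 fold change was 0.78 ± 0.21 (limma adjusted p = 0.217). Cyp2j11 had 157 and 146 in mLN, against 215 and 197 in pLN, a log2 fold change of −0.44 ± 0.14 that did not pass (limma adjusted p = 0.284). Its relatives Cyp2j6 and Cyp2j9 were at −0.17 and 0.34. Cyp2w1, known in humans from colorectal tumours, had signals of 53.4 and 57.5 in mLN, against 83.2 and 68.3 in pLN, and a log2 fold change of −0.44 ± 0.17 (limma adjusted p = 0.347). Cyp2r1, a vitamin D hydroxylase, was at 0.17.

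In family 3 the genes other than Cyp3a13 and Cyp3a25 did not pass. Cyp3a16, a form of fetal mouse liver, had signals of 18.5 and 12.9 in mLN, against 63.2 and 15.3 in pLN. Only pLN replicate 1 was high, so the nodes overlapped. The log2 fold change of −1.01 ± 0.73 (limma adjusted p = 0.633) became 0.018 without that array. Cyp3a41, which predominates in female mouse liver, had 50.7 and 54.3 in mLN, against 89.0 and 87.1 in pLN, with −0.75 ± 0.14 (limma adjusted p = 0.122). Cyp3a11, the main pregnane X receptor target of mouse liver, was at −0.26.

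Of the 9 tested genes of family 4 none passed limma's test, and 2 had an unadjusted p under 0.05. Cyp4b1, a lung enzyme that oxidises fatty acids and furans, had signals of 29998 and 22451 in mLN, against 13834 and 13483 in pLN. The nodes did not overlap, and the log2 fold change was 0.93 ± 0.19 (limma adjusted p = 0.145). Cyp4x1, known from brain, had signals of 52.6 and 45.5 in mLN, against 87.0 and 74.1 in pLN, a log2 fold change of −0.72 ± 0.17 (limma adjusted p = 0.173). Cyp4a12, which in male mouse kidney hydroxylates arachidonic acid, had 52.5 and 73.0 in mLN, against 113 and 82.8 in pLN (−0.64 ± 0.26, limma adjusted p = 0.376). Its other entering probe gave 0.55, so the direction of Cyp4a12 depended on the probe. Cyp4f18, which degrades leukotriene B4 in mouse neutrophils, was at −0.25, and Cyp4f13 and Cyp4f16 were at 0.074 and 0.033.

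Among the 11 tested genes with more than 1 entering probe, the probes differed in sign for 3, Cyp2c37, Cyp4a10 and Cyp4a12. None of these had passed. Probes of the same sign could still differ in size. Those of Cyp2d22 ran from 0.57, the value that represented it, to 1.37. The other Cyp2d9 probe was also further from equal signal than the one shown, while the other Cyp2d10 probe was closer to it.

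P450 genes lie in tandem clusters of related genes, and position on mm8 was used to ask whether neighbours moved together. Members were joined where the gap between their probes was at most 1000000 bases. The chromosome 7 cluster (chr7:25511245-26842370) held 10 members, 6 of them tested. Cyp2s1, higher in mLN, and Cyp2f2, lower in mLN, formed its 2 ends. The 4 tested genes between them, Cyp2b13, Cyp2a4, Cyp2b19 and Cyp2g1, were at 0.40, −0.25, −0.23 and 0.14, and none passed.

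The Cyp3a cluster on chromosome 5 (chr5:145689932-146294176) held 5 members. All 4 that were tested had a negative log2 fold change, with a median of −0.88, against −0.033 over all tested genes. Cyp3a25 alone passed. All 4 were positive under normexp, but with its spots of high local background left out 3 were negative (median −0.27). Without pLN replicate 1, 3 were negative (median −0.50), and without pLN replicate 2 the median was −1.40. The probes of Cyp3a11 and Cyp3a41 each list more than 1 RefSeq transcript, and how far probes of these neighbours share signal was not tested. Cyp3a13, higher in mLN, lay apart on the same chromosome. The Cyp1a pair on chromosome 9 held Cyp1a1 and Cyp1a2, and Cyp1a2 was above background on no array. No gene passed in the Cyp2j and Cyp4 clusters of chromosome 4, the Cyp2d cluster of chromosome 15, the Cyp4f cluster of chromosome 17 or the Cyp2c cluster of chromosome 19.

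**Figure D3:**
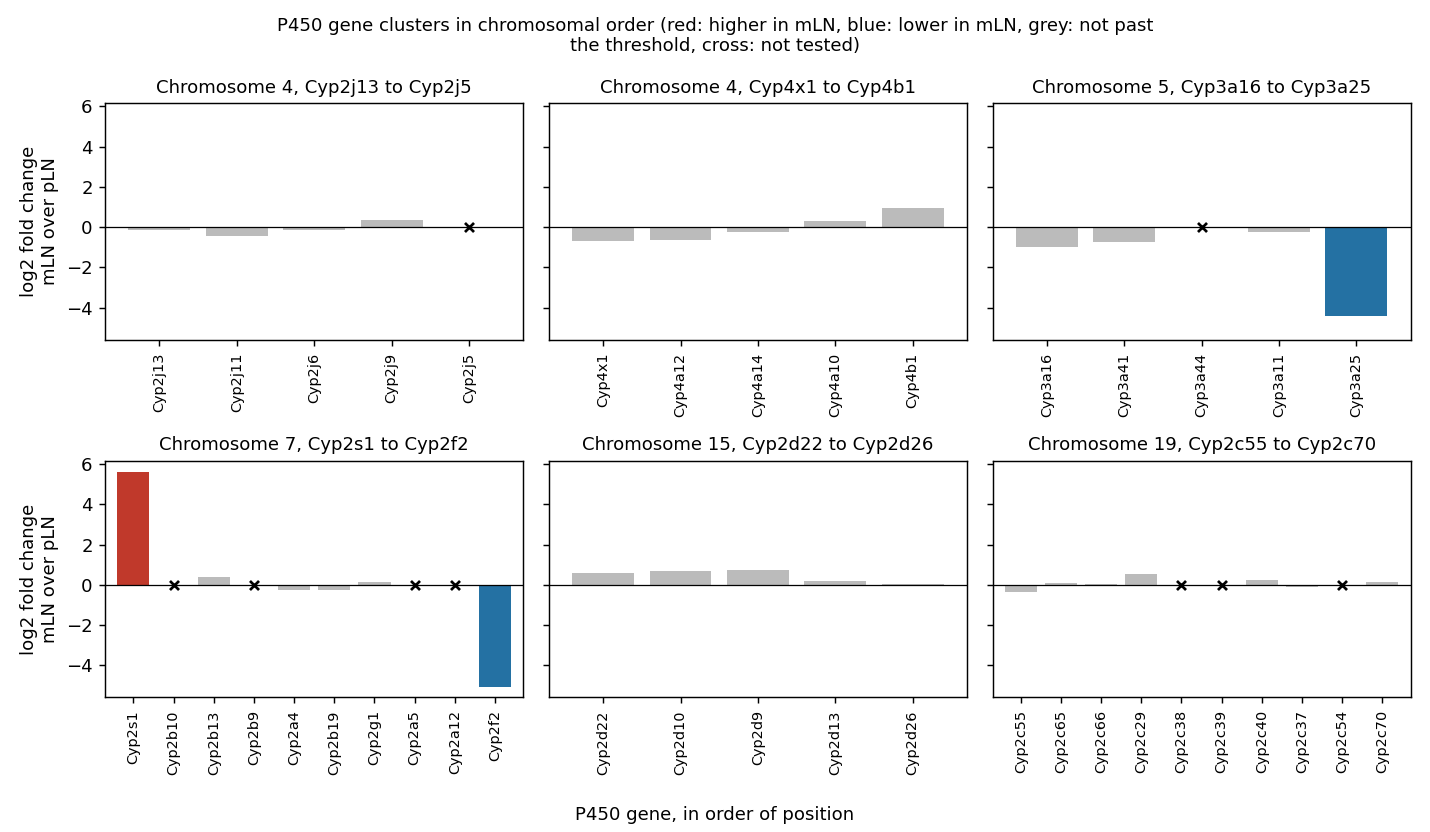
Log2 fold change of mLN over pLN (vertical axis) for each P450 gene of the 6 clusters with at least 5 members, in chromosomal order. Red bars were higher and blue bars lower in mLN at an adjusted p of 0.05, grey bars did not pass, and crosses were not tested. The chromosome 7 panel runs from Cyp2s1 at 5.61 to Cyp2f2 at −5.06, with grey bars between them.

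Genes that serve the same pathway were described from lists. Beside the counts of these lists and of the marker lists further below, 1.05% of all tested genes passed limma's test. An unadjusted p under 0.05 was reached by 14.7% of all tested genes, and the median log2 fold change of all was −0.033. The redox partners that pass electrons to P450 enzymes were all above background in both nodes, and 0 of 11 passed limma's test, 1 with an unadjusted p under 0.05. That 1 was Por, the P450 oxidoreductase, with signals of 6411 and 5913 in mLN, against 3731 and 4582 in pLN (log2 fold change 0.57 ± 0.17, limma adjusted p = 0.249).

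Of 18 receptors and regulators, 0 passed and 3 had an unadjusted p under 0.05. Ahrr, the aryl hydrocarbon receptor repressor and itself a target of that receptor, had signals of 70.3 and 130 in mLN, against 26.6 and 28.1 in pLN (log2 fold change 1.80 ± 0.33, limma adjusted p = 0.121). Nr1h4, the bile acid receptor, had 476 and 543 in mLN, against 291 and 291 in pLN (0.81 ± 0.15, limma adjusted p = 0.122). Chosen for their role after their values were seen, Ahr, the receptor itself, and Tiparp, another of its targets, were at −0.23 and 0.20. How these changes differ from each other and from that of Cyp1a1 was not tested.

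Conjugating enzymes and hydrolases, which act on P450 products, had 2 of 35 tested genes higher and 0 lower, with a median log2 fold change of 0.21. An unadjusted p under 0.05 was reached by 15 of the 35, and 25 were positive. The count that passed was 4 under median scaling, 5 with the intensity trend, and 0 under normexp, with no filter on dim probes, or without pLN replicate 1 or pLN replicate 2. Gsta3, a glutathione transferase, had signals of 3334 and 3972 in mLN, against 95.5 and 171 in pLN (4.83 ± 0.33, limma adjusted p = 0.0163). Gsta4, a relative that conjugates lipid aldehydes, had 1001 and 875 in mLN, against 193 and 193 in pLN (2.28 ± 0.15, limma adjusted p = 0.0160). Gsta1 had 268 and 319 in mLN, against 112 and 108 in pLN (1.41 ± 0.16), and just missed the threshold (limma adjusted p = 0.0518).

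Of the drug efflux transporters 0 of 8 tested genes passed limma's test, 1 with an unadjusted p under 0.05. That gene was Abcc3, with signals of 137 and 131 in mLN, against 88.8 and 76.5 in pLN (0.70 ± 0.15, limma adjusted p = 0.154). Among P450 genes of other families, which make bile acids, steroids and prostacyclin, 1 of 16 was higher in mLN and none lower, and 5 had an unadjusted p under 0.05. It was Ptgis, the prostacyclin synthase, with signals of 2949 and 1986 in mLN, against 180 and 150 in pLN (3.88 ± 0.25, limma adjusted p = 0.0160). Cyp7b1, an oxysterol hydroxylase, and Cyp27a1, a sterol hydroxylase of mitochondria, were at 1.15 and 1.03 (limma adjusted p = 0.0666 and 0.0773).

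**Figure D4:**
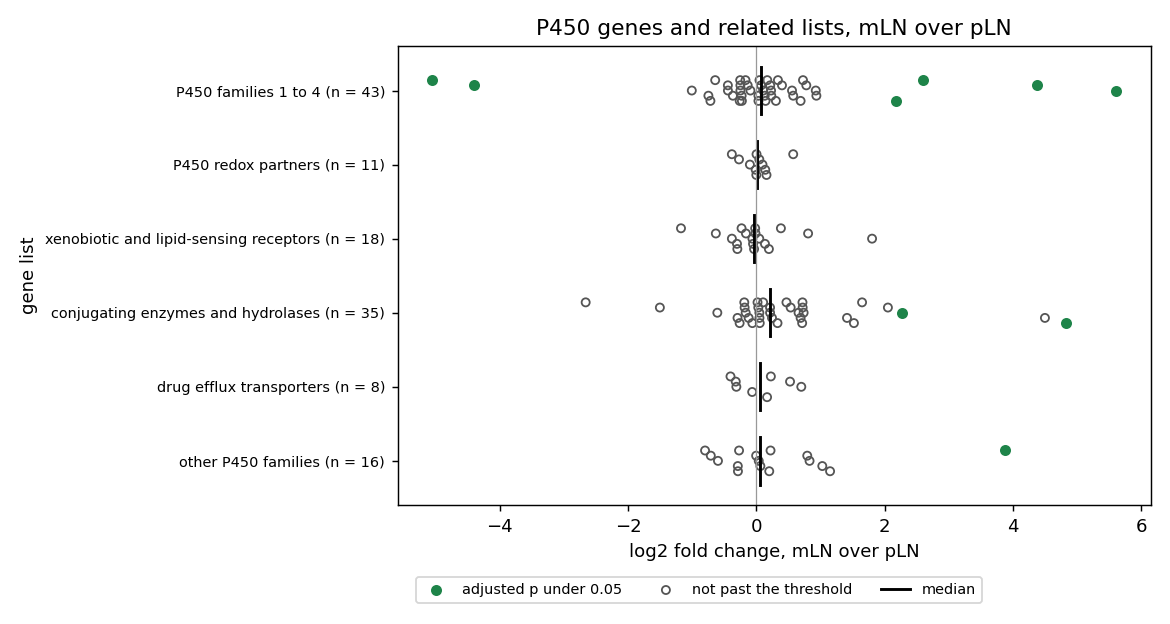
Log2 fold change of mLN over pLN (horizontal axis) for the tested genes of P450 families 1 to 4 and of 5 lists of the same pathway. Filled points passed an adjusted p of 0.05, open points did not, and bars are medians. Each median lies within 0.25 of 0, and the points that passed outside the P450 families 1 to 4 are Gsta4, Gsta3 and Ptgis, all positive.

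Markers of other cell types moved between the same arrays, and in bulk RNA fewer cells of a type and less RNA per cell cannot be told apart. Of 12 mesothelium markers 10 were higher in mLN, with summed signals of 196297 and 153620 in mLN, against 8415 and 8598 in pLN. Wt1, a defining mesothelial gene, was well above background on neither pLN array. The 17 pancreatic acinar markers summed to 1632278 and 583608 in mLN, against 33969 and 2906 in pLN. All 17 had a positive log2 fold change (median 7.56) and an unadjusted p under 0.05, and 1 passed limma's adjusted threshold. On both pLN arrays 12 of these 17, and 8 of the 12 mesothelium markers, were well above background. The others of both lists entered the test only through mLN, so a difference was built into their selection. The 13 hepatocyte markers, of which 12 were on the array, summed to 3931 and 2411 in mLN, against 2726 and 3169 in pLN. None of 9 tested passed limma's test, 3 had an unadjusted p under 0.05, and Apoa1 was above background on no array. Intestinal epithelium markers summed to 2097 and 2956 in mLN, against 1083 and 980 in pLN, with 0 of 11 passing, 4 with an unadjusted p under 0.05, and Cdx2 above background on no array. These values stand beside the P450 genes that were higher in mLN, and their part in that difference was not tested.

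Beside Cyp2f2 and Cyp3a25, which were lower in mLN, stood the surface and glandular epithelium markers. Of 16, 3 were lower in mLN, Csn3, Wfdc2 and Esrp1, and 1 was higher, Krt7, with a median log2 fold change of −1.94. An unadjusted p under 0.05 was reached by 11 of the 16, and 5 were positive and 11 negative. Their summed signals overlapped, at 23346 and 17767 in mLN, against 17553 and 27898 in pLN. That sum includes Krt7, Krt8 and Krt19, which are also in the mesothelium list. Csn3, a milk casein, had signals of 36.4 and 31.1 in mLN, against 2316 and 7089 in pLN. The airway and club cell markers, the cells in which Cyp2f2 is best known, summed to 1352 and 1665 in mLN, against 839 and 689 in pLN. Of their 7 tested members 0 passed limma's test, 2 had an unadjusted p under 0.05, and Foxj1, Bpifa1 and Nkx2-1 were above background on no array. Scgb1a1, the defining club cell secretoglobin, had signals of 194 and 169 in mLN, against 141 and 137 in pLN. Melanocyte markers summed to 951 and 904 in mLN, against 1711 and 1618 in pLN. Of 6 tested, 1 was lower in mLN, Mlana, a melanosome protein, with signals of 37.4 and 17.9 in mLN, against 667 and 559 in pLN, while Tyrp1 was above background on no array. Sebaceous and skin markers summed to 2111 and 1864 in mLN, against 1455 and 1378 in pLN, and 0 of 5 tested passed limma's test, 1 with an unadjusted p under 0.05. The part of these cells in the P450 differences was not tested.

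The labelled tissue was checked against 10 fibroblast and reticular stroma markers and 10 endothelium markers. Every array detected each of them well above background. In the stroma list 0 passed limma's test and 1 had an unadjusted p under 0.05, and in the endothelium list, with 8 of 10 negative and a median log2 fold change of −0.54, 0 passed and 6 had an unadjusted p under 0.05. Leukocyte markers summed to 2956 and 2240 in mLN, against 10395 and 5063 in pLN, and 0 of 9 passed, 3 with an unadjusted p under 0.05. Adipocyte markers summed to 210147 and 122759 in mLN, against 225072 and 169861 in pLN, and 0 of 9 passed, again 3 with an unadjusted p under 0.05.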

How the data were processed

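Agilent Feature Extraction 9.5.3.1 produced the deposited intensity of each spot, per the file headers and the notes on processing. Beside it the authors deposited other values, 0 or 1 flags that mark outliers, saturation and signals well above background. Per the file headers the 4 arrays share 1 slide and 1 scan, and neither could be a block. A deposited value table of intensity, rescaled per array with low values raised to a floor, was used only as an alternative.

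Control and outlier spots were dropped, spots of a probe averaged, log2 taken and each array's 75th percentile subtracted. A probe entered if well above background on both arrays of a node (31883 probes), and the entering probe of highest mean stood for its gene (21392 genes). The test was limma 3.58.1 in R 4.3.3 (lmFit, eBayes, Benjamini-Hochberg over all genes, threshold 0.05, total degrees of freedom 4.35), tested on simulated data. An exact permutation of 2 against 2 arrays cannot go below 0.333. For a gene dim in a node, the bound uses the higher of its own signal and the lowest signal called well above background on each array. On 4 arrays their number limits the precision.

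The text names members past the threshold, the 8 largest changes each way, the extreme mean signals, members at least 2-fold changed in both experiments, and up to 4 genes of each pathway list by smallest p. Of the genes so named, 1 is not reported here. Some other genes are named for their role, chosen after their values were seen. The members and lists were chosen with earlier results of these data known. Gene names come from the files, updated through RefSeq genes. RefSeq supplied the upstream sequences. Alternatives covered background correction, scaling, filters, the choice of probe, the value table, an intensity trend, a block and each array left out. Equal numbers mark a shared experiment, since the sample titles carry an experiment number and the design names independent approaches. The deviations of mLN and pLN arrays within an experiment correlated across genes with r = 0.246, so a fit with experiment as block was run as an alternative.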

Additional observations from a re-analysis of the deposited data

How the results depend on the processing

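With 2 arrays a node, every call leans on the variance shared across genes. The 6 P450 genes that passed were the same under median scaling, quantile normalization, the mean of probes, each probe on its own, the value table, an intensity trend and the replicate block for the experiment, where 4 genes were higher and 2 lower (probe by probe, 4 probes and 3, since both Cyp3a25 probes passed). Pairing by experiment changed no P450 call and raised the count of all genes called to 333, against 224 without the block. Over the arrays left out in turn, the count higher ranged from 0 to 4 and the count lower from 0 to 1. Leaving out pLN replicate 1 or pLN replicate 2 left 0 of all genes called by limma, with 8 and 14 members at an unadjusted p under 0.05. Without mLN replicate 1 Cyp2f2 was lost (adjusted p = 0.0603), and without mLN replicate 2 both Cyp2f2 (adjusted p = 0.05001) and Cyp2e1 (adjusted p = 0.0550) were. Over the 4 omissions Cyp2f2 ranged from −5.51 to −4.61, Cyp3a16 from −2.03 to 0.018, the median of the tested members from 0.0097 to 0.073 and the count of all genes called from 0 to 185. The value of 0.018 for Cyp3a16 was that without pLN replicate 1.

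Normexp called 0 genes in all and so 0 members higher and 0 lower, with 4 members and 569 genes at an unadjusted p under 0.05. It moved the median of all genes to 0.38 and that of the members to 0.98, gave Cyp2f2 −4.18 (adjusted p = 0.689), and turned Cyp2j11 to 0.45, Cyp2w1 to 0.99, Cyp3a16 to 1.13, Cyp3a25 to 0.39, Cyp3a41 to 0.78, Cyp4a12 to 0.72 and Cyp4x1 to 0.91. On mLN replicate 2, 5 spots had a local background over 1000. Without them, an alternative chosen after seeing the data, normexp called 386 genes, 3 members higher (Cyp1a1, Cyp2e1 and Cyp2s1) and 1 lower (Cyp2f2), while Cyp3a13 (1.24, adjusted p = 0.0508) and Cyp3a25 (−1.09, adjusted p = 0.149) missed the threshold. With no filter on dim probes 1 member was higher (Cyp3a13) and 1 lower (Cyp3a25), Cyp2f2 kept −5.06 (adjusted p = 0.0610), and 44 of 27586 genes were called. A filter asking for all 4 arrays left 1 lower, since Cyp3a25 was not tested. Median scaling called 354 genes and the intensity trend 440. A slide block was not possible, since all arrays shared 1 slide and 1 scan. By the looser flag for a positive and significant signal, 70 probes instead of 55 were detected in a node. Signals near background limit what can be said of the 12 untested genes. The causes of these changes were not tested, except where an alternative tests fewer genes or arrays.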
